A study of Homo sapiens with 16 samples.

Results

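HOXB13 sites of LNCaP prostate cancer cells that stood alone in the control and were called again with neither re-expressed form of HOXB13 are described here. A site was taken from the control HOXB13 peak list, on chromosomes 1 to 22 and X, if it overlapped no control ATAC-seq, HDAC3 or HDAC1 peak. It also had to overlap no HOXB13 peak of the library with the wild-type protein (WT) and none of the library with the G84E variant. An overlap was at least 1 bp. The rule left 19099 sites of the 91430 control peaks, which is 21.0% of the 90813 on the chromosomes used and 25.7% of the 74321 sites without an ATAC, HDAC3 or HDAC1 peak (HOXB13-only sites). The sites were thus chosen by measured values, the calls in the control HOXB13, ATAC, HDAC3, HDAC1, WT and G84E lists, and what these 6 lists show of them is a description with no test.

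The series profiled LNCaP and PC-3, established prostate cancer cell lines. In LNCaP, viral infection lasted 7 days and delivered either the control shRNA vector pGIPZ, an shRNA against HOXB13 (shHOXB13), or this shRNA plus virus for WT or for G84E protein. Control libraries are from LNCaP cells with pGIPZ (ChIP-seq of HOXB13, HDAC3 and HDAC1, and ATAC-seq), and knockdown libraries from LNCaP cells with shHOXB13 (HOXB13, HDAC3 and ATAC-seq). Both re-expression libraries also carry the HOXB13 shRNA, so the introduced protein was expressed on a knockdown background. PC-3 cells gave HOXB13 ChIP-seq with pGIPZ, with another HOXB13 antibody than LNCaP, and ChIP-seq of acetylated histone H3 lysine 27 (H3K27ac) with pGIPZ and with the HOXB13 shRNA. Each group held 1 library, so no difference between conditions has a replicate check and no p-value is given. Intervals are 95% intervals and cover only counting error over the sites or tags of 1 library, whose tags are not shown to be independent molecules.

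HOXB13, a homeobox protein made in prostate and hindgut, binds AT-rich motifs and in prostate cells works together with the androgen receptor and FOXA1. G84E is a coding variant known for its association with inherited prostate cancer risk, and it lies in the part of the protein that contacts MEIS cofactors. HDAC3 is the deacetylase of the NCOR/SMRT corepressor complexes, HDAC1 works in other corepressor complexes, and ATAC-seq marks chromatin open to transposase. H3K27ac is found at active promoters and enhancers. A HOXB13-only site thus had HOXB13 signal without called opening or deacetylase signal in the same cells.

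Depth ranged from 34.4 M tags (M for 1000000) in the control HOXB13 library to 40.3 M with WT and 44.2 M with G84E, and 47.2 M after knockdown. Lists held 190879 peaks with WT and 191796 with G84E, with 17.12% and 15.64% of tags in peaks against 9.17% in the control. Both lists were longer than the control list, and that neither has a peak at these sites is set by the rule. Of all control HOXB13 peaks 23.6% were found with neither form. That share was 14.4% (2372 of 16492) among control peaks that did have an ATAC, HDAC3 or HDAC1 peak. Of the other HOXB13-only sites 38240 met peaks of both forms (51.5% of the total), 9773 of WT alone (13.1%) and 7209 of G84E alone (9.7%). Sites found with both forms are the reference below, and sites found with 1 form alone number 16982.

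In the control the sites were weak, and most lay close to the calling threshold. Their normalized tag count, counted by the authors per 10000000 library tags, had a median of 6.11, with 5.53 and 7.28 as quartiles and a range of 3.49 to 30.0. In whole tags the median site rested on 21 tags, and 5% of sites on 33 or more. HOXB13-only sites found with both forms had a median of 8.15 with quartiles of 6.40 and 11.3, and those found with 1 form alone 6.69. The deposited findPeaks score, which had to reach 16 tags in the control list, was at exactly that limit for 28.4% of the sites and within 2 tags of it for 59.5%. The shares were 7.68% and 21.2% for sites found with both forms. The fold over the surrounding 10000 bp, which had to reach 4, was under 5 at 34.1% of the sites and at 13.8% of those found with both forms.

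**Figure D1:**
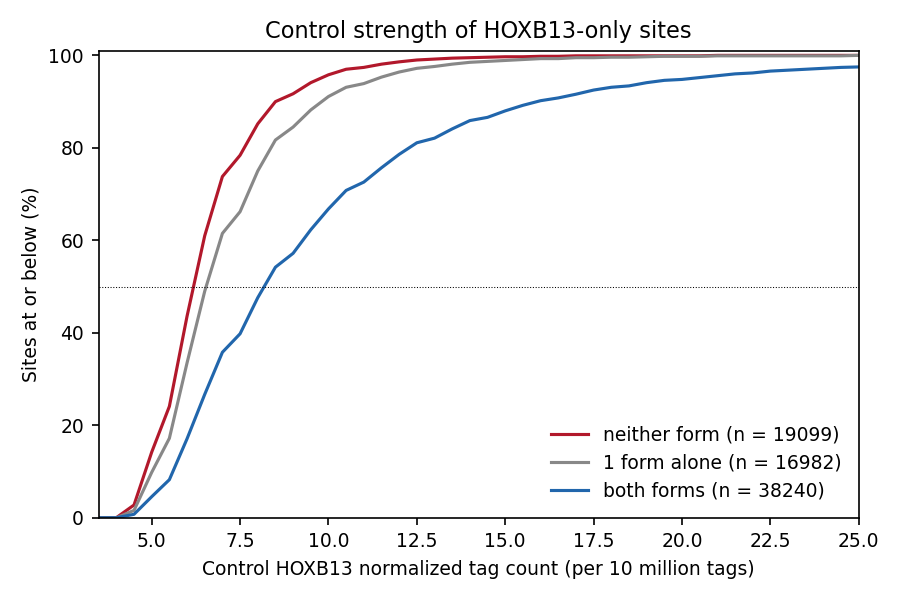
Cumulative share of HOXB13-only sites (y axis, percent) by normalized tag count in the LNCaP control HOXB13 library (x axis, per 10000000 tags, up to 25), for sites found with neither form, with 1 form alone and with both. The curve of sites found with neither form crosses the dotted 50% line furthest to the left, near its median of 6.11, and that of both forms near 8.15.

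Strength in the control ordered how often a site was found with neither form. Control HOXB13 peaks were divided into 10 equal groups by tag count. In the weakest group 43.2% of the HOXB13-only sites were found with neither form, in the fifth 28.6%, in the eighth 11% and in the strongest 1.22%. The weakest group alone held 19.2% of the sites and the strongest 0.288%, or 55 sites. Strong sites without either form were rare: 797 (4.17%) reached a normalized tag count of 10, 63 (0.33%) reached 15 and 15 (0.0785%) reached 20. Of the sites found with both forms 12690 (33.2%), 4586 (12%) and 1986 (5.19%) did. The peak shape differed little, with a median focus ratio (the share of tags on the expected strand side of the centre) of 0.783 against 0.795.

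The tag thresholds of the re-expression libraries were no higher per library tag than that of the control. The tag threshold was 18 with WT and 19 with G84E, which is 4.47 and 4.30 per 10000000 tags against 4.66 in the control. The local filter removed 63637 of 254554 candidate peaks with WT, 83546 of 275378 with G84E and 25836 of 117294 in the control. Peaks of 1 list had to lie 548 bp (WT), 566 bp (G84E) or 580 bp (control) apart. Whether these rules removed a call at the sites was not tested. The tag counts of the WT and G84E libraries at the sites are not in peak lists, so the signal that remained there was not measured. A site with neither peak is a site without a call, and occupancy below the call was not tested. How often a repeat of the control library would fail to call these sites was not tested either.

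Gaps to peaks of the re-expressed forms were taken in long lists, of 190879 peaks with WT and 191796 with G84E. Gaps from random positions were not computed, so whether the sites lie closer than such positions was not tested. The gap from the edge of a site to the nearest WT peak had a median of 3269 bp and that to the nearest G84E peak 3344 bp. A peak of either form lay within 500 bp of 17.8% of the sites (3392), within 1000 bp of 29.5% and within 10000 bp of 91.8%. Peaks of both forms lay within 500 bp of 7.60% (1451). Sites found with 1 form alone had similar gaps to the form they lacked, with medians of 3440 bp from WT-alone sites to G84E peaks and 3381 bp from G84E-alone sites to WT peaks. At the edge of the rule, 125 sites had a WT peak and 112 a G84E peak at a gap of up to 20 bp, with median control tag counts of 6.40 and 6.69. Just outside it, 234 HOXB13-only sites overlapped a WT peak and 251 a G84E peak by 1 to 20 bp, with a median of 6.69 for each.

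**Figure D2:**
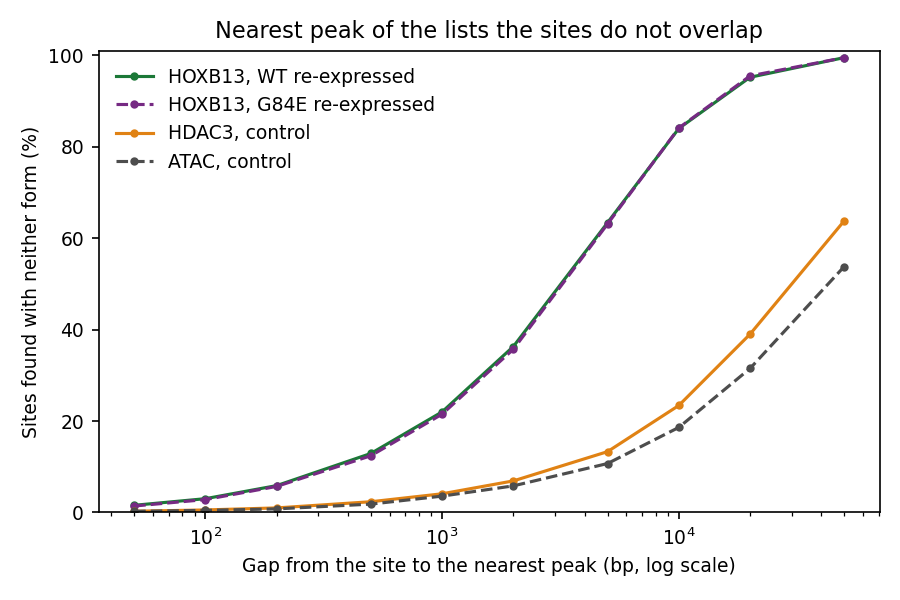
Share of the 19099 sites found with neither form (y axis, percent) that have a peak of the named library within a given edge-to-edge gap (x axis, bp, log scale). The WT and G84E curves lie on each other and reach 84% and 84.1% at 10000 bp, where control HDAC3 and ATAC reach 23.4% and 18.6%. The lists differ in length, with 190879 (WT), 191796 (G84E), 33964 (HDAC3) and 37073 (ATAC) peaks.

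Control HDAC3, ATAC and HDAC1 peaks lay further away than WT and G84E peaks, in much shorter lists of 33964, 37073 and 16632 peaks. The nearest control HDAC3 peak lay at a median gap of 30462 bp, the nearest ATAC peak at 43298 bp and the nearest HDAC1 peak at 95522 bp. For HOXB13-only sites found with both forms these medians were 28181, 40414.5 and 87055 bp. HDAC3 peaks lay within 10000 bp of 23.4% of the sites against 24.8%, and ATAC peaks within that distance of 18.6% against 19.7%. The surroundings of the compared groups thus differed by little in these lists.

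The sites lay on every chromosome used. The nearest other site of the same kind was at a median of 43676 bp, and 14.2% (2716) had one within 10000 bp, measured between centres. The nearest HOXB13-only neighbour of a site was itself found with neither form in 25.1% of cases, and the nearest neighbour of a site found with both forms was so in 26.5%. The share of HOXB13-only sites found with neither form lay between 23.1% (chromosome 14) and 28.0% (chromosome 19) on the autosomes. On chromosome X it was 20.6% (232 of 1127), the lowest value. These shares are made of the calls that chose the sites and were not tested.

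In windows of 1 Mb with at least 20 HOXB13-only sites (2015 windows), the median share found with neither form was 25%. The 5th and 95th percentiles were 12.5% and 40%. The standard deviation over windows was 8.19 points, and binomial counting alone would give 7.99 points. These shares are also made of the calls that chose the sites, and their spread was not tested. The highest share was on chromosome 11 at 81000001 to 82000000, where 17 of 31 sites (54.8%) were found with neither form. It was followed by chromosome 9 at 35000001 to 36000000 with 14 of 27 and chromosome 1 at 247000001 to 248000000 with 12 of 24. The lowest shares were on chromosome 10, with 0 of 30 at 3000001 to 4000000 and 0 of 22 at 47000001 to 48000000, and on chromosome 7 with 1 of 31 at 12000001 to 13000000. They are the extremes of 2015 windows, and no correction for picking them was made.

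The other 6 lists had no part in choosing the sites: HOXB13, HDAC3 and ATAC-seq after knockdown in LNCaP, and HOXB13 and both H3K27ac lists of PC-3. Of the sites 82.0% (15664) had no peak in any of these 6 lists, so in the files they are HOXB13 peaks of the control library and of no other library. The share was 66.8% for HOXB13-only sites found with both forms and 63.8% for all control HOXB13 peaks. A peak in 1 of the 6 lists was found at 8.90% of the sites, in 2 at 5.99%, in 3 at 2.75%, in 4 at 0.335% and in 5 at 3 sites. The list with the largest difference between the groups was that of HOXB13 in PC-3.

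**Figure D3:**
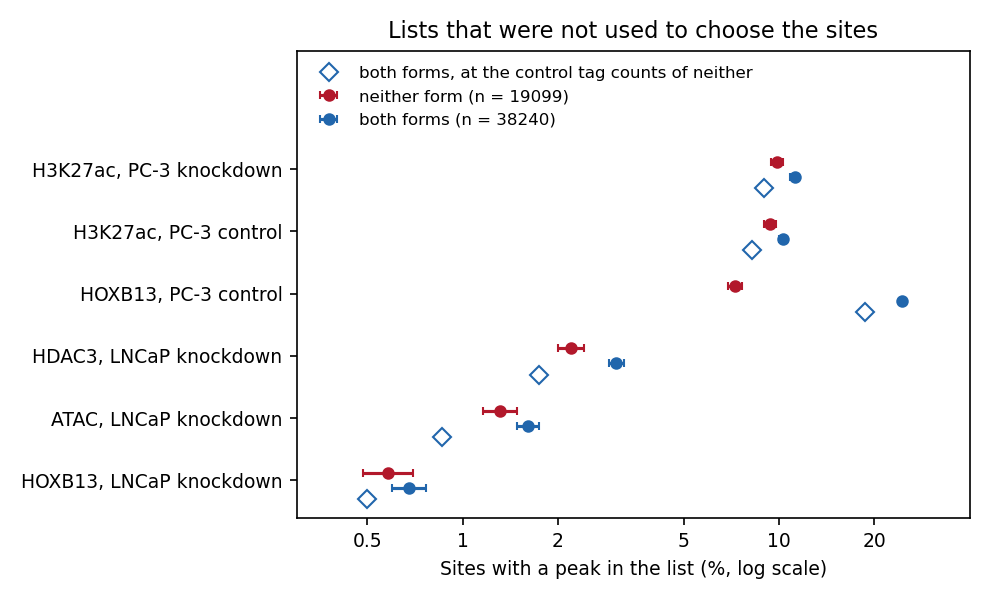
Share of sites with a peak in each of the 6 lists not used to choose them (x axis, percent, log scale), for sites found with neither form (red) and both forms (blue), with 95% Wilson intervals as bars. Open diamonds give the share for both forms averaged at the control tag counts of the sites found with neither. In PC-3 HOXB13 the red point (7.27%) lies left of both blue marks (24.5% and 18.7%), and in the other 5 lists it lies between them.

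HOXB13 peaks of PC-3 were rare at the sites. Of the 19099 sites 1388 had a PC-3 HOXB13 peak, 7.27% (95% CI 6.91 to 7.64), against 21.1% of all control HOXB13 peaks and 17.3% of HOXB13-only sites. HOXB13-only sites found with 1 form alone had one at 12.2% (11.7 to 12.7) and those found with both at 24.5% (24.1 to 25). The difference between neither and both was −17.3 percentage points (95% CI −17.8 to −16.7). Averaged over the 10 groups of control tag count it was −11.5 points (−12.1 to −10.8), with 7.27% against 18.7%. Against 1 form alone it was −4.02 points (−4.62 to −3.41) at equal tag count.

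The order of neither, 1 form and both held at every strength. In the weakest group of control peaks 5.20% of sites found with neither form had a PC-3 HOXB13 peak, 8.95% of those found with 1 form and 15.5% of those found with both. In the fifth group the shares were 8.18%, 11.6% and 20.6%, and in the ninth 15.7%, 19.8% and 30.7%. In the strongest group they were 18.2% (10 of 55 sites, 95% CI 10.2 to 30.3), 26.8% and 41.4%. Neither lay below both in 10 of the 10 groups. The sites that PC-3 shared were slightly stronger in LNCaP than the others, with a median control tag count of 6.40 against 6.11 without a PC-3 peak. In PC-3 itself the shared peaks had a median normalized tag count of 13.4 (quartiles 9.40 and 22.1, highest 391.9), close to the 12.7 of the whole PC-3 list and below the 15.9 at sites found with both forms. Cell line and antibody differ together between the HOXB13 libraries of LNCaP and PC-3 and cannot be told apart.

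**Figure D4:**
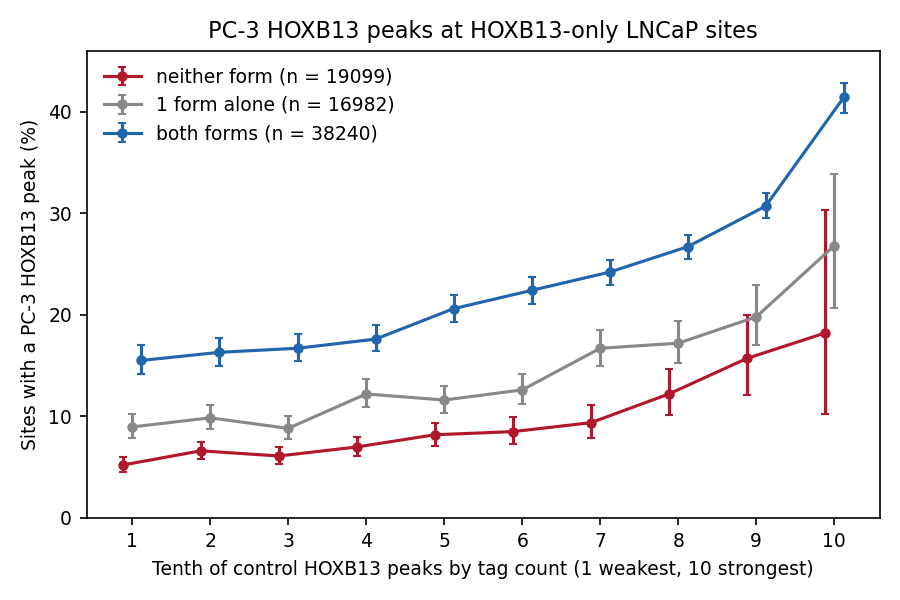
Share of HOXB13-only LNCaP sites with a PC-3 HOXB13 peak (y axis, percent) in each of 10 equal groups of control HOXB13 peaks by tag count (x axis), with 95% Wilson intervals. The line for neither form lies below that for both forms in all 10 groups, from 5.20% against 15.5% to 18.2% against 41.4%.

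Acetylated chromatin in PC-3 covered about as many of the sites as of the reference sites. In control PC-3 cells 1786 sites lay in an H3K27ac region, 9.35% (95% CI 8.95 to 9.77), against 14.0% of all control HOXB13 peaks, 9.90% of HOXB13-only sites and 10.3% of the sites found with both forms. After HOXB13 knockdown in PC-3 it was 1877 sites, 9.83%, against 14.9%, 10.6% and 11.2%. Of the sites 1495 (7.83%) were covered in both PC-3 libraries, 291 (1.52%) in the control alone and 382 (2%) after knockdown alone. At sites found with both forms these shares were 8.71%, 1.59% and 2.45%. The difference to sites found with both forms was −0.949 percentage points (−1.46 to −0.432) in the control, and 1.14 points (0.595 to 1.68) at equal control tag count, but −1.45 (−2.03 to −0.879) at equal fold over local background, so its sign changed with the measure of strength. The covering regions had a median width of 2529 bp and a median normalized tag count of 54.1, and at sites found with both forms 2600 bp and 57.5.

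Among the sites with a HOXB13 peak in PC-3, acetylation was more frequent than at HOXB13-only sites found with both forms, and close to its level over all control HOXB13 peaks. Among the 1388 sites with a PC-3 HOXB13 peak 514 lay in a control PC-3 H3K27ac region, 37.0% (34.5 to 39.6). Over all control HOXB13 peaks with a PC-3 HOXB13 peak the share was 34.8%, and over the HOXB13-only ones 25.1%. It was 29.2% (27.3 to 31.2) for HOXB13-only sites found with 1 form alone and 22.4% (21.6 to 23.3) for those found with both. The difference between neither and both was 14.6 points (12 to 17.3), or 17 (14.2 to 19.8) at equal control tag count and 17.6 (15.1 to 20.2) at equal PC-3 HOXB13 tag count. After HOXB13 knockdown in PC-3 the shares were 40.9% and 25.4% (38.0% over all control peaks and 28.2% over HOXB13-only ones), a difference of 15.5 points (12.8 to 18.2). Without a PC-3 HOXB13 peak the shares lay closer together, 7.18% for neither and 6.36% for both in the control. The comparison was chosen after the data were seen. Few of the sites take part in it, as 2.69% had both a PC-3 HOXB13 peak and PC-3 control acetylation against 5.50% of the sites found with both forms.

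**Figure D5:**
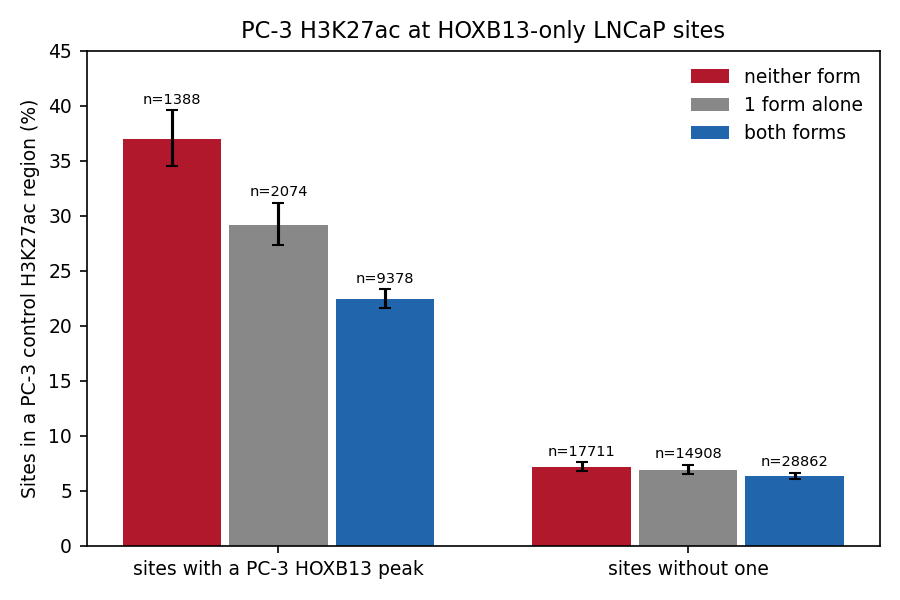
Share of HOXB13-only LNCaP sites in a control PC-3 H3K27ac region (y axis, percent), for sites with and without a PC-3 HOXB13 peak (x axis) and by re-expressed form, with 95% Wilson intervals and the number of sites above each bar. With a PC-3 HOXB13 peak the bars go from 37.0% (neither) over 29.2% to 22.4% (both), and without one from 7.18% to 6.36%.

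After HOXB13 knockdown in LNCaP almost none of the sites had a HOXB13 peak. A peak of the knockdown HOXB13 list lay at 111 sites, 0.581% (0.483 to 0.699), against 1.38% of all control HOXB13 peaks, 0.642% of HOXB13-only sites and 0.677% of those found with both forms. The difference of −0.0961 points (−0.228 to 0.0452) was within counting error. Overlap of the knockdown list with random positions was not computed, so whether 111 sites exceed it was not tested. The knockdown tag counts at the 111 sites had a median of 5.09 (3.60 to 42.0), close to the 4.87 of the whole knockdown list, against a control median of 6.69 at the same sites. In 30 of the 111 the knockdown value was above the control value, and in 46 of the 259 reference sites, whose control median was higher at 10.2. Of these 111 sites 14 had a knockdown HDAC3 peak (12.6%, 7.66 to 20.1) and 0 a knockdown ATAC peak, with a Wilson upper bound of 3.35% (a floor of 3 counts gives 2.70%). Among the sites found with both forms 31 of 259 had a knockdown HDAC3 peak (12%, 8.56 to 16.5). A knockdown ATAC peak lay at 13 of the 259 (5.02%, 2.96 to 8.40). In each list the intervals of the groups overlap.

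HDAC3 was called after knockdown at few of the sites, none of which had a control HDAC3 peak by the rule. The HDAC3 tag threshold was lower after knockdown, 5.32 normalized tags in a library of 26.3 M tags. In the control HDAC3 library of 21.6 M tags it was 7.42. Whether HDAC3 signal rose at these sites was not tested. A knockdown HDAC3 peak lay at 420 sites, 2.20% (2.00 to 2.42), against 9.35% of all control HOXB13 peaks, which include sites with control HDAC3, and 2.74% of HOXB13-only sites. Of the HOXB13-only sites found with both forms 3.06% had one, a difference of −0.866 points (−1.13 to −0.591). At equal control tag count the difference had the other sign, 0.458 points (0.196 to 0.720), with the sites above the reference in 10 of 10 strength groups, and at equal fold over local background it was −0.186 points (−0.462 to 0.0893). Against sites found with 1 form alone it was −0.0846 points (−0.389 to 0.220) at equal control tag count. The HDAC3 tag counts there ranged from 5.32 to 48.3 with a median of 10.3, equal to that at reference sites and below the 11.8 of the whole list.

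By 1 bp overlap, open chromatin was called at fewer of the sites after knockdown than HDAC3, but this order depended on the overlap rule. Knockdown ATAC peaks were 111 bp wide and knockdown HDAC3 peaks 365 bp. With centres within 100 bp, which also changed the sites, ATAC was at 1.56% (1.41 to 1.71) and HDAC3 at 1.33% (1.20 to 1.48). A knockdown ATAC peak lay at 251 sites, 1.31% (1.16 to 1.49), against 8.93% of all control HOXB13 peaks, 1.61% of HOXB13-only sites and 1.61% of the reference sites. The difference was −0.299 points (−0.500 to −0.0890) and 0.455 points (0.258 to 0.651) at equal control tag count, and 0.105 (−0.102 to 0.311) at equal fold. In 9 of 10 strength groups the sites lay above the reference. Against sites found with 1 form alone, of which 1.91% had a knockdown ATAC peak, the sign was the opposite, −0.276 points (−0.519 to −0.0321) at equal control tag count. Median ATAC tag counts were 5.10 in both groups, below the 5.89 of the whole list. Only 29 sites (0.152%) had both a knockdown HDAC3 and a knockdown ATAC peak, against 0.256% of the reference sites. Of the 251 sites 28.7% (23.4 to 34.6) lay in control PC-3 H3K27ac and 16.7% had a PC-3 HOXB13 peak, against 21.4% and 27.6% of the 617 reference sites with a knockdown ATAC peak.

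Among themselves the sites differed with control strength. They were divided into 5 equal groups by control tag count, from 3.49 to 5.24 in the weakest to 7.57 to 30.0 in the strongest. A PC-3 HOXB13 peak was found at 5.26% of the weakest and 10.3% of the strongest group, and control PC-3 H3K27ac at 6.20% and 13.5%. Knockdown HDAC3 went from 1.34% to 4.01%, knockdown ATAC from 0.864% to 2.36% and knockdown HOXB13 from 0.445% to 0.838%. The gap to the nearest peak of either form fell from a median of 2974 bp to 1638 bp. Stronger sites were thus closer to WT or G84E peaks and more often marked in other lists. The rise in other lists was not particular to these sites. Sites found with both forms were compared between the weakest and strongest of the 10 groups of control peaks. Their shares rose from 15.5% to 41.4% (PC-3 HOXB13) and from 6.48% to 14.7% (control PC-3 H3K27ac). For knockdown HDAC3, ATAC and HOXB13 they rose from 1.25% to 6.75%, 0.402% to 4.23% and 0.402% to 1.29%.

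The strongest site was on chromosome 5 at 49418157 to 49418447 (hg19), with 30.0 normalized tags in the control (103 tags, 95% Poisson CI 24.5 to 36.4). Its fold over the surrounding 10000 bp was 4.65, near the limit, and the nearest WT and G84E peaks lay 10626 and 10649 bp away. Control and knockdown H3K27ac regions of PC-3 covered it with 11.4 and 15.5 normalized tags, and the other lists had no peak there. The next was on chromosome 17 at 25300695 to 25300985 with 28.5 normalized tags (23.2 to 34.8), the strongest with a peak in none of the other 11 lists. Its nearest WT peak was 11989 bp and its nearest G84E peak 7364 bp away, and its fold over the surroundings was 5.53. The ranking is by control tag count alone. Whether these sites lie in repeated sequence was not tested.

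Other strong sites had peaks of the re-expressed forms nearby. The site on chromosome 6 at 116629394 to 116629684 (23.9 normalized tags, 19.0 to 29.6) had WT and G84E peaks 2921 and 2896 bp away and a knockdown HDAC3 peak of 7.60 normalized tags. On chromosome 1 at 146784988 to 146785278 (21.8, 17.2 to 27.4) a WT peak lay 74 bp and a G84E peak 198 bp from the edge. That site rose 14.9-fold over its surroundings and had a peak in no other list. Further strong sites without a peak in the other lists were on chromosome 1 at 145005903 to 145006193 (21.5 normalized tags) and 158171015 to 158171305 (21.0), and on chromosome 12 at 81988769 to 81989059 (21.0). Their nearest WT peaks were 3376, 4437 and 5454 bp away.

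Among sites shared with PC-3 the strongest was on chromosome 21 at 17457307 to 17457597. It had 22.4 normalized tags in LNCaP control and 18.8 in PC-3 HOXB13, and lay in PC-3 H3K27ac regions of 14.7 (control) and 25.9 (knockdown). WT and G84E peaks were 1854 and 1828 bp away. The site on chromosome 4 at 95591480 to 95591770 had 21.2 in LNCaP and 21.0 in PC-3, with an HDAC3 control peak 505 bp away. On chromosome 17 at 7145730 to 7146020 the control value was 20.4, with a PC-3 HOXB13 peak of 9.40, a knockdown HDAC3 peak of 22 and PC-3 H3K27ac regions of 113.6 and 185.6. That site lay just outside several excluded peaks, with gaps of 49 bp to HDAC3, 390 bp to ATAC, 61 bp to WT and 23 bp to G84E. Sites on chromosome 16 at 33998029 to 33998319 and chromosome 10 at 7244812 to 7245102 had 19.5 and 19.2 in LNCaP and 7.59 and 6.87 in PC-3. Their folds over the surroundings in the control were 4.97 and 12.6.

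Of the sites with a knockdown HOXB13 peak the strongest was on chromosome 19 at 27864649 to 27864939, with 16.6 normalized tags in the control (12.6 to 21.5) and 17.8 after knockdown. Its fold over the surroundings in the control was 4.19, near the limit, and a control HOXB13 peak of 3211.9 normalized tags lay within 1 Mb of it. At chromosome 4, 45132952 to 45133242, the values were 16 and 4.87, and at chromosome 17, 46703015 to 46703305, they were 14.3 and 4.66. The latter had a control ATAC peak 50 bp away. For knockdown HDAC3, the third strongest site after those on chromosomes 6 and 17 was on chromosome 12 at 81428801 to 81429091, with 16.3 in the control, 8.36 for HDAC3 and 4.71 for ATAC. The strongest with a knockdown ATAC peak was on chromosome 6 at 106056219 to 106056509 (16.6 in the control, 4.32 for ATAC). The site on chromosome 3 at 190102015 to 190102305 had 15.4 in the control, 6.28 for knockdown ATAC and PC-3 H3K27ac regions of 342.8 and 320.9, with a WT peak 58 bp away.

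The weakest sites rested on few tags. The lowest was on chromosome X at 124933703 to 124933993 with 3.49 normalized tags (12 tags, 1.80 to 6.10), and it had a PC-3 HOXB13 peak of 6.15. Sites on chromosome 3 at 30975652 to 30975942 and chromosome 4 at 184669187 to 184669477 had 3.78 each (13 tags, 2.01 to 6.47), the first with a PC-3 HOXB13 peak of 12.3. Each of the 3 had a findPeaks score of 16, the lowest the list admits.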

How the data were processed

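Peak lists of 12 libraries were analysed. LNCaP H3K27ac (4 samples) was not analysed here. The submitters' processing notes name Bowtie2, HOMER 4.2 and hg19. Peak calling used findPeaks on each library without an input, per the file headers. Factor-style lists had a false discovery rate of 0.001, a 4-fold excess over 10000 bp and a local p of 0.0001. PC-3 H3K27ac used the histone style with 1000 bp windows and a Poisson p of 0.001, and there the headers count 0 peaks removed by the local filter. Per the file headers, the deposited signal is the normalized tag count per 10000000 tags. The deposited score, the deposited fold over local background and the deposited focus ratio (a fraction) are the authors' values for each peak and only describe or rank peaks of 1 list. The deposited p-value over local background was not used, nor was the deposited clonal fold. Region width is the deposited end minus start. Peaks had a fixed width per library (290 bp in the control, 274 with WT, 283 with G84E), and widths between libraries differ, which changes how easily peaks overlap.

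Here, overlaps, edge gaps, Wilson and Newcombe 95% intervals, exact Poisson intervals and differences averaged over 10 equal groups of control tag count (weighted by the sites) were computed with Python 3.11.15, numpy 2.4.6, pandas 2.3.3 and scipy 1.17.1, and tested on simulated peaks. Whole tags were recovered from header totals (100% of control values under 10 were whole within 0.1). Groups came from the labels. The sites and comparisons were chosen with earlier results of these data known. Named regions are the strongest or weakest sites overall and within each list, and the extreme windows, with chromosome 8 left out of the naming. Alternatives were other overlap rules, equal list lengths, stricter thresholds and autosomes only. Matching on score or fold, and acetylation within PC-3 HOXB13 sites, were chosen after the data were seen. No hg19 sequence or annotation was used, so the planned gene annotation and sequence features were not run. The 617 control peaks on other sequences were left out.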

Additional observations from a re-analysis of the deposited data

How the results depend on the processing

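No paired analysis was possible because each group held 1 library. The PC-3 HOXB13 difference between neither and both stayed negative and apart from 0 under the 10 alternatives run, and that of PC-3 acetylation at PC-3 HOXB13 sites stayed positive and apart from 0 under its 11, all chosen after the data were seen. Of 110 alternative values 58 were counted as unchanged. Differences so counted kept their direction and side of 0, and shares stayed within the interval of the value reported. The number of sites, 19099, has no interval. Its values counted as unchanged were 27005 (centres within 100 bp), 22433 (50% overlap), 15236 (500 bp gaps allowed) and 18867 (autosomes only), so that label allowed large changes.

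The number of sites was 31797 with equal numbers of HOXB13 peaks, 6926 in the better-scoring 50% of every list and 4996 among control peaks at or above the median tag count. The share of HOXB13-only sites with neither form was 33.9% with centres within 100 bp, 29.5% with overlap of 50% of the shorter peak, 21.5% with peaks within 500 bp counted as shared, 42.8% with equal numbers, 18.2% in the better-scoring 50% and 13.8% above the median.

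With centres within 100 bp the sites had knockdown HOXB13 at 0.300%, knockdown HDAC3 at 1.33%, knockdown ATAC at 1.56%, PC-3 HOXB13 at 5.86% and PC-3 H3K27ac at 10.8%. With 50% overlap knockdown HOXB13 was at 0.361% and knockdown HDAC3 at 1.69%, and with 500 bp gaps allowed they were at 1.33% and 2.64%, with PC-3 HOXB13 at 8.57%. With equal numbers knockdown ATAC was at 1.5%, PC-3 HOXB13 at 8.67% and PC-3 H3K27ac at 8.89%. In the better-scoring 50% the 5 shares were 0.707%, 2.44%, 1.63%, 7.68% and 7.71%, and above the median tag count 0.821%, 3.62%, 2.18%, 10.1% and 13.1%.

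Differences between neither and both in the other lists changed sign in some of the alternatives that took strength into account. For knockdown HOXB13 the difference was −0.108 points with close centres (interval then apart from 0), 0.124 in the better-scoring 50%, 0.0309 above the median, 0.0816 at equal tag count and 0.0982 at equal score. At equal fold over local it kept its sign, −0.133. For knockdown HDAC3 it was 0.114, −0.366 (no longer apart from 0), 0.458 and 0.624 in that order, and −0.186 at equal fold over local. For knockdown ATAC it was −0.125 with equal numbers, then 0.481, 0.0243, 0.455 and 0.510, and 0.105 at equal fold. For PC-3 H3K27ac it was 0.323, 1.25, 1.14 and 1.40, but −1.45 at equal fold, where the sign did not change. Equal score and equal fold were added after the data were seen. The cause was not tested.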
